A study of Mus musculus with 4 samples.

Results

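The genes described here are 35 genes of glycolysis and of the response to low oxygen, taken by name from a fixed list out of the 32285 genes counted in each of the 4 libraries. They hold glucose carriers (Slc2a1, Slc2a3), the enzymes that split glucose to pyruvate (Hk1, Hk2, Gpi1, Pfkl, Pfkp, Pfkm, Aldoa, Aldoc, Tpi1, Gapdh, Pgk1, Pgam1, Eno1, Eno2, Pkm), genes that handle pyruvate and lactate (Ldha, Slc16a1, Slc16a3, Pdk1), regulators of the phosphofructokinase step (Pfkfb3, Pfkfb4), oxygen-sensitive transcription factors and their prolyl hydroxylases (Hif1a, Epas1, Egln1, Egln3), and known targets of those factors (Bnip3, Bnip3l, Ankrd37, Ndufa4l2, Cox4i2, P4ha1, Car9, Adm). Ovaries of 8-week-old female littermates were dissociated and their single cells sequenced with a 10x Genomics 3′ kit. The 2 control libraries came from Fosl2flox/flox mice (Fosl2F/F below, "WT" in part of the labels), in which both copies of Fosl2 carry LoxP sites but no Cre is present. The 2 others came from Cyp19a1-Cre; Fosl2flox/flox mice (Fosl2cKO), where Cre is driven by the promoter of the aromatase gene, which granulosa cells (GCs) use and most other ovarian cells do not. The labels do not say which mouse or how many mice each library came from, so every p-value below measures the spread between libraries.

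Glycolysis turns glucose into pyruvate, which lactate dehydrogenase can reduce to lactate for export through monocarboxylate carriers. When oxygen is scarce, prolyl hydroxylases of the Egln family stop marking HIF1A and EPAS1 for destruction, and these factors then raise the transcription of most glycolytic enzymes and of genes that change or remove mitochondria. The ovarian follicle has no blood vessels inside its basement membrane, and the oocyte depends on pyruvate and lactate that the surrounding GCs make from glucose.

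The matrices held 11045 and 28155 barcodes for Fosl2F/F and 8654 and 9255 for Fosl2cKO, and 41538 cells passed the filters. The 2nd Fosl2F/F library had more and shallower cells than the others, with a median of 3655 UMIs (unique molecular identifiers, each standing for 1 captured RNA) per cell against 11177 to 12465, and any 2 libraries shared 10 to 38 of their cell barcodes. The 1st Fosl2F/F library stood apart in GC-like cells, where Cyp19a1 itself was at 218 and 57.8 CPM in the controls and 33.5 and 43.7 CPM under the Fosl2cKO label. Fosl2 in the same cells was at 161 and 167 CPM in the controls and 167 and 115 CPM under the Fosl2cKO label, so the 1st library labelled Fosl2cKO was not below the controls, and the counts do not separate the deleted exons from the rest of the gene. These libraries are therefore named by their label. Cells were clustered without the 35 genes and without 80 other genes of the pathway, and the clusters were named from marker lists with the suffix "-like". This gave 13 classes with at least 20 cells in every library. The largest were GC-like (15806 cells), stromal-like (10218) and theca-like (5460), and the pericyte or smooth muscle-like class held 990. Clusters that no list named are called by their leading genes.

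Levels are given as CPM, UMIs of a gene scaled to 1000000 UMIs of the class in a library, as the mean ± SD of the 4 libraries unless conditions are named. Values of single libraries follow the labels, with the 1st and 2nd Fosl2F/F library (the controls) before the 1st and 2nd labelled Fosl2cKO. Differences between classes are described without a test, since the classes were built from the same cells. Most enzymes of the common path from glucose to lactate were highest in GC-like or luteal-like cells. Of the 35 genes, 7 were highest in GC-like cells (Pfkl, Tpi1, Gapdh, Pgk1, Eno1, Ldha and Hif1a) and 6 in luteal-like cells (Gpi1, Aldoa, Pgam1, Pkm, Pfkfb3 and Bnip3). Gpi1, Aldoa, Tpi1, Gapdh, Pgk1, Pgam1, Eno1, Pkm and Ldha together took 0.406% ± 0.091 of all UMIs of GC-like cells and 0.340% ± 0.093 of those of luteal-like cells, against 0.261% ± 0.050 in theca-like, 0.186% ± 0.019 in endothelial-like and 0.146% ± 0.020 in stromal-like cells. The ranges of the GC-like and luteal-like libraries overlapped.

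Ldha, which makes the lactate dehydrogenase subunit that favours lactate, was at 534 ± 117 CPM in GC-like cells and at 262 ± 27.5 CPM in the next class, endothelial-like cells, with GC-like cells highest in each of the 4 libraries. Gapdh, the enzyme that oxidizes glyceraldehyde 3-phosphate, was at 1164 ± 291 CPM in GC-like, 944 ± 274 CPM in luteal-like and 313 ± 137 CPM in lymphatic endothelial-like cells, the lowest class. Pgk1, which makes the first ATP of the path, was at 258 ± 61.6 CPM in GC-like cells against 161 ± 75.7 CPM in luteal-like cells. For Aldoa, which cleaves fructose 1,6-bisphosphate, the first and second classes did not differ beyond their spread (462 ± 123 CPM in luteal-like and 439.8 ± 102 CPM in GC-like cells). The same held for Pkm, the last enzyme before pyruvate (459 ± 104 CPM and 421 ± 89.6 CPM), and for Pgam1, which moves the phosphate of phosphoglycerate (544 ± 201 CPM in luteal-like and 505 ± 116 CPM in theca-like cells). Pfkl, the liver phosphofructokinase, was at 82.3 ± 10.9 CPM in GC-like and 74.5 ± 11.2 CPM in epithelial-like cells, and Gpi1, which turns glucose 6-phosphate into fructose 6-phosphate, at 245 ± 26.2 CPM in luteal-like and 205 ± 0.536 CPM in endothelial-like cells. Hif1a, the oxygen-sensitive subunit of HIF-1, varied little, from 143 CPM in macrophage-like cells to 291 CPM in GC-like cells.

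**Figure D1:**
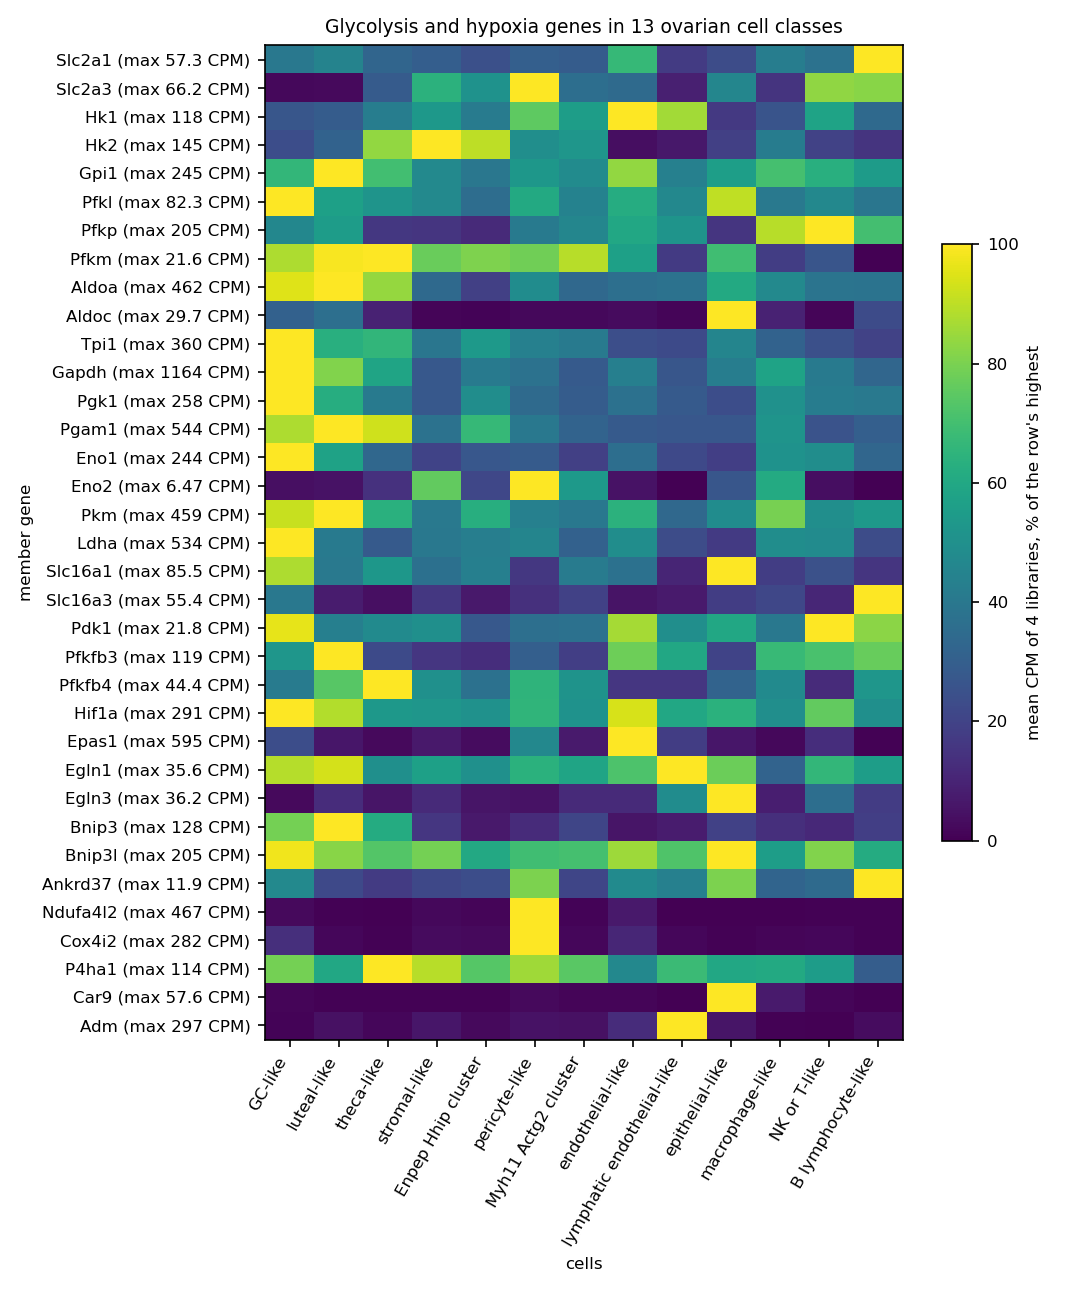
Each row is 1 of the 35 genes and each column 1 of 13 classes, and the colour gives the mean CPM of the 4 libraries as a percent of the highest class of that row, whose level stands beside the gene name. The GC-like or the luteal-like column is the brightest for Gpi1, Aldoa, Tpi1, Gapdh, Pgk1, Pgam1, Eno1, Pkm and Ldha. Ldha is bright in the GC-like column and dimmer in the luteal-like one. Ndufa4l2 and Cox4i2 are bright in the pericyte-like column alone.

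Pericytes, the contractile cells on small vessels, were the class with the highest level of 4 genes, Ndufa4l2, Cox4i2, Slc2a3 and Eno2. Ndufa4l2, a mitochondrial protein related to the complex IV subunit NDUFA4, was at 457, 494, 269 and 646 CPM in the 4 libraries of the pericyte or smooth muscle-like class. The next class, endothelial-like, had 32.4 ± 8.21 CPM, a ratio of 14.4 between the means, and every pericyte value lay above every endothelial one. Cox4i2, the oxygen-regulated form of complex IV subunit 4, was at 269.6, 295, 151 and 413 CPM in pericyte-like cells and at 38.1 ± 31.7 CPM in GC-like cells, the next class, a ratio of 7.41. Both genes were higher in the Rgs5 Mustn1 cluster of this class (704 cells, 608 ± 167 CPM and 397 ± 133 CPM) than in its Fn1 Colec11 cluster (286 cells, 263 ± 159 CPM and 121 ± 87.7 CPM). Epas1, which encodes HIF-2α and is known from vessels, was at 399 ± 32.3 CPM in the first and 99.9 ± 35.4 CPM in the second. Slc2a3, a glucose carrier of high affinity, was also highest in pericyte-like cells at 66.2 ± 23.1 CPM, but NK or T-like cells (55.2 ± 12.2 CPM) did not differ from them beyond the spread, and GC-like cells had 1.42 CPM. Eno2, the enolase of neurons, was low everywhere, with 6.47 ± 3.0 CPM in pericyte-like cells.

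The other 18 genes peaked in other classes. Epas1 was at 595 ± 64.4 CPM in endothelial-like cells against 277 ± 21.5 CPM in pericyte-like cells. Hk1, the hexokinase most cells use, was highest there too at 118 ± 18.1 CPM, close to lymphatic endothelial-like cells (102 ± 34.8 CPM). Hk2, the hexokinase that growth and insulin raise, was at only 5.28 ± 6.21 CPM in endothelial-like cells and highest in stromal-like cells at 81.2, 153, 240.5 and 104 CPM, values that differed widely between libraries. Adm, which encodes the vessel-relaxing peptide adrenomedullin, was at 125, 236, 206 and 620.3 CPM in lymphatic endothelial-like cells and at 38.1 ± 7.37 CPM in endothelial-like cells. Egln1, the main oxygen-sensing hydroxylase, was highest in the same class at 35.6 ± 10.8 CPM but close to luteal-like (33.3 ± 4.902 CPM) and GC-like cells (31.6 ± 3.83 CPM).

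Epithelial-like cells, which carry the surface epithelium markers Upk3b and Krt19, led for 5 genes. Car9, a carbonic anhydrase on the cell surface that is a classical HIF target, was at 75.6, 38.6, 83.6 and 32.6 CPM there and at 4.26 ± 1.01 CPM in macrophage-like cells, the next class. Egln3, a hydroxylase that HIF itself raises, was at 36.2 ± 5.32 CPM in epithelial-like and 0.939 ± 0.587 CPM in GC-like cells, its lowest class. Aldoc, the aldolase of brain, was at 29.7 ± 10.5 CPM. Slc16a1, a carrier of lactate and pyruvate, was at 85.5 ± 10.3 CPM in epithelial-like and 75.1 ± 8.65 CPM in GC-like cells, and Bnip3l, a receptor for mitochondrial clearance, was at 205 ± 24.9 CPM and 200.2 ± 14.2 CPM. These last 2 pairs did not differ beyond their spread.

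Theca-like cells led narrowly for Pfkm, the muscle phosphofructokinase (21.6 ± 1.34 CPM), for Pfkfb4, which sets the level of fructose 2,6-bisphosphate (44.4 ± 14.5 CPM), and for P4ha1, which hydroxylates collagen (114 ± 12.5 CPM), and other classes fell within the spread for each. NK or T-like cells led for Pfkp, the platelet phosphofructokinase, at 205 ± 44.1 CPM against 183 ± 22.6 CPM in macrophage-like cells, and for Pdk1, which blocks pyruvate dehydrogenase, at 21.8 ± 3.81 CPM against 20.97 ± 1.54 CPM in GC-like cells. B lymphocyte-like cells were a small class of 230 cells. S100a8 and S100a9, which are on the eosinophil or neutrophil marker list, were among its leading genes, so it may hold cells other than its name says. This class led for the main glucose carrier Slc2a1 (57.3 ± 23.04 CPM) and the lactate exporter Slc16a3 (55.4 ± 41.8 CPM). It also led for Ankrd37, a HIF target of unclear role (11.9 ± 10.7 CPM). These 3 values rest on few UMIs, and Ankrd37 was at 0 in 1 of the 4 libraries. Luteal-like cells led for Pfkfb3, whose enzyme speeds glycolysis (18.6, 122, 241 and 95.01 CPM), and for Bnip3, which marks mitochondria for removal (95.8, 113, 224 and 78.1 CPM), and both sets of values were spread so widely that other classes overlapped with them.

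The 15806 GC-like cells were clustered again, and 10 clusters had at least 20 cells in every library, of which 2 were joined as mitotic-like, leaving 9 GC groups. One cluster of 1123 cells stood out for these genes. None of the 35 genes was used to build it, yet Ndufa4l2, Cox4i2, Ldha and Slc16a3 were among its 10 leading genes, beside Mvd, Acat2, Fdps and Idi1 of sterol synthesis and Ank1 and Sema3g, and it is called the Mvd Fdps cluster here. It was the highest GC cluster for 21 of the 35 genes, and for 16 of these in each of the 4 libraries. The 9 enzymes from Gpi1 to Ldha took 0.860% ± 0.265 of its UMIs, against 0.593% ± 0.170 in the Grem1 Nppc cluster, 0.50% ± 0.131 in mitotic-like, 0.364% ± 0.083 in mural-like, 0.225% ± 0.032 in atretic-like and 0.152% ± 0.022 in cumulus-like cells.

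Ldha was at 2297, 1598, 1214 and 1171 CPM in the Mvd Fdps cluster and at 162, 122, 109.9 and 114 CPM in cumulus-like cells, the GCs with markers of those around the oocyte. Pgk1 was at 610.4 ± 200.2 CPM against 76.5 ± 16.4 CPM, Eno1, the common enolase, at 573 ± 130.0 CPM against 54.5 ± 9.44 CPM, and Tpi1, which interconverts the triose phosphates, at 804 ± 284 CPM against 98.8 ± 20.9 CPM. Each of these genes was lowest in cumulus-like cells. Slc16a3 was at 149, 59.6, 35.7 and 53.2 CPM in the Mvd Fdps cluster and at 43.2 ± 26.2 CPM in the Grem1 Nppc cluster, the next one. Cox4i2 was at 409, 162, 51.4 and 108 CPM and Ndufa4l2 at 219.8, 37.7, 24.2 and 16.7 CPM. The next clusters had 55.1 ± 49.5 CPM of Cox4i2 (Pecam1 Cdc20 cluster) and 16.2 ± 20.1 CPM of Ndufa4l2 (a cluster of low depth led by Gm26917). In all 3 genes the 1st Fosl2F/F library was far above the other 3. The 9 pericyte markers summed to between 21.7 and 57.4 CPM in the Mvd Fdps cluster, between 23.3 and 56.8 CPM in cumulus-like cells and between 7311 and 11130 CPM in pericyte-like cells.

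The cumulus-like cells (3231) were highest among GCs for 5 genes. Pfkfb3 was at 97.5, 200.2, 159 and 114 CPM there and at 62.6 ± 2.11 CPM in the Mvd Fdps cluster. Hk1 was at 61.6 ± 16.4 CPM against 38.6 ± 10.1 CPM in mural-like cells, Egln1 at 56.9 ± 15.7 CPM against 32.5 ± 1.81 CPM in the Mvd Fdps cluster, Epas1 at 201 ± 30.5 CPM and Pfkm at 27.1 ± 1.98 CPM. Mural-like cells, with markers of the follicle wall, were highest for Pfkfb4, at 61.95, 42.1, 59.4 and 49.8 CPM against 27.5 ± 3.804 CPM in the Grem1 Nppc cluster, with mural-like cells first in every library, and for Adm, which was below 10 CPM in every GC cluster and library. Hif1a was highest in the Grem1 Nppc cluster (371 ± 34.9 CPM) and within the spread of mural-like cells (363 ± 38.6 CPM). The remaining 6 genes were highest in small clusters, the low-depth cluster (575 cells) for Slc2a3, Hk2 and Eno2 and the Pecam1 Cdc20 cluster (327 cells) for Slc16a1, Egln3 and Car9. Of these 6, only Hk2 and Slc16a1 were above 10 CPM on average in any GC cluster.

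**Figure D2:**
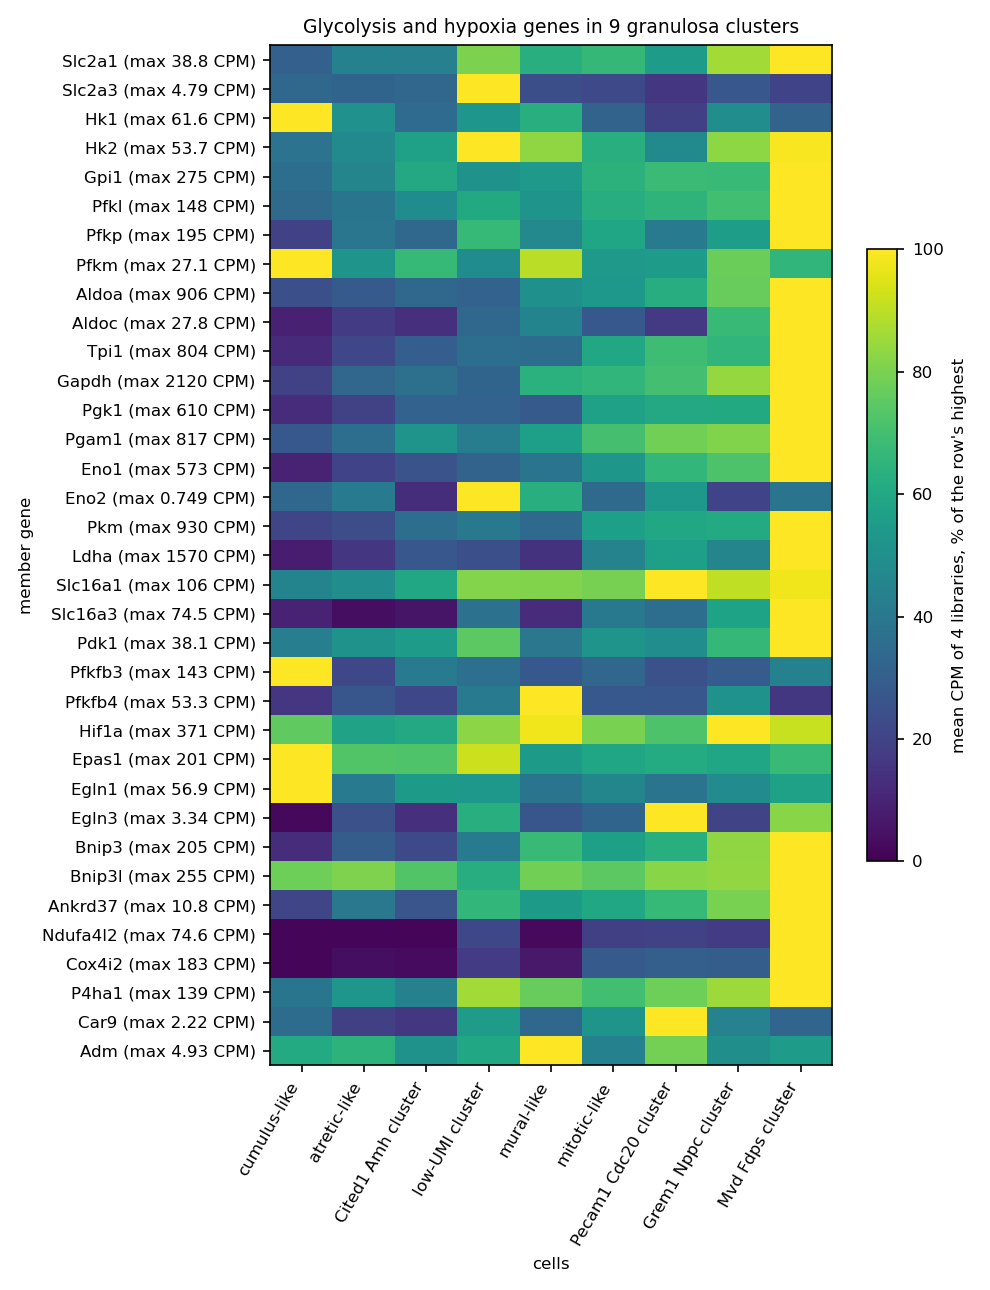
Rows are the 35 genes and columns 9 groups of GC-like cells (mitotic-like joins 2 clusters), coloured by mean CPM of the 4 libraries as a percent of the row's highest cluster. The Mvd Fdps column at the right is the brightest for 21 genes, and the cumulus-like column at the left is bright for Hk1, Pfkm, Pfkfb3, Epas1 and Egln1 and dark for most enzymes.

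The genes whose mean log2(CPM + 1) over the 9 GC groups was most like the mean of those 9 enzymes were sought among 8380 genes with at least 20 CPM in a cluster, leaving out the pathway lists. The first 10 by Pearson correlation were Mvk, Ndufa3, Rab33a, Mgat4b, Ube2n, Gde1, Ndufs4, Mvd, 2310033P09Rik and Fdps, with r from 0.977 down to 0.968. Mvk, Mvd and Fdps encode enzymes of the mevalonate path to sterols, and Ndufa3 and Ndufs4 are subunits of complex I. Each was highest in the Mvd Fdps cluster, as was the mean of the enzymes that they were picked to resemble. Mvd and Fdps are also leading genes of that cluster. Fdps was at 598 CPM there against 60.4 CPM in its lowest cluster. The points are 9 groups of cells (mitotic-like being 2 clusters joined) from the same 4 libraries, so r is a description.

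Promoters of the members were searched for the sites that HIF factors are known to bind, whose core is ACGTG. RefSeq gave 43 promoters (250 bases before to 50 after a transcript start, GRCm38.p6) for 30 of the 35 genes, and none for Slc2a3, Epas1, Bnip3l, Ndufa4l2 and Cox4i2. On either strand, ACGTG occurred in a promoter of 21 of the 30 genes (70.0%) against 21.8% of 27025 genes in the table, and in 55.8% of the 43 promoters against 19.6% of 32851. The promoters of the 30 genes held a median of 20 CG dinucleotides and those of all genes 7, and the motif itself holds a CG. TGANTCA, the letters bound by AP-1 dimers of which FOSL2 is a part, occurred in promoters of 2 of the 30 genes (6.67%, Aldoa and Car9) against 8.97% of all. As examples that hold ACGTG, picked after the matches and levels were known, promoters of Ldha and Slc16a3, leading genes of the Mvd Fdps cluster, and of Bnip3, which is compared between conditions below, are printed 5′ to 3′ in the direction of the gene, with ACGTG on either strand in capitals. Another Ldha promoter, at chr7:46846832-46847131, holds 0 matches, as do those of Tpi1 and Eno1.
Ldha chr7:46845554-46845853 (plus strand): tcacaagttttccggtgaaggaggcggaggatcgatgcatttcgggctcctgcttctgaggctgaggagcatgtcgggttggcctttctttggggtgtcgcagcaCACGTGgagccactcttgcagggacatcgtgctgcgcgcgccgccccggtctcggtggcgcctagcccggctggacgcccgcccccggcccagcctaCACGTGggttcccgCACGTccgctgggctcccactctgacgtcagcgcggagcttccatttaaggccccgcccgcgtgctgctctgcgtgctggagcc
Slc16a3 chr11:120948817-120949116 (plus strand): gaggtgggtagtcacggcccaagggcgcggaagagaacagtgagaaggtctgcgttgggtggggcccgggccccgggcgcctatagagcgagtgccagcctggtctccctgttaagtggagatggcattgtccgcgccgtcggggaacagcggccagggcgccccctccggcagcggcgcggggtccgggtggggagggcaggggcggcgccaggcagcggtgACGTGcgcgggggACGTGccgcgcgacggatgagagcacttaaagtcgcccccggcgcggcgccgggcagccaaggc
Bnip3 chr7:138909457-138909756 (minus strand): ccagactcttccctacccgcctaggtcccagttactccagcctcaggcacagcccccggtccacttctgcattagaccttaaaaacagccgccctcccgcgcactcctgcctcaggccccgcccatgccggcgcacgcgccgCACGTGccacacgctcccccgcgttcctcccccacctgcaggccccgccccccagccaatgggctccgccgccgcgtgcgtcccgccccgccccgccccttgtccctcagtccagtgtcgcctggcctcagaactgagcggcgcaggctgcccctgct
In Ldha 2 of the runs read CACGTG and so match on both strands. A match of letters does not show that a factor binds there.

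Several of these enzymes have a paralog that does the same step, and GC clusters differed in which one they used. Shares below are of the UMIs of the family, which a 3′ count does not scale with transcript length. Of Ldha and Ldhb, the second of which favours pyruvate, Ldha made up 87.1% ± 4.09 in the Mvd Fdps cluster, 48.9% ± 5.65 in mural-like and 13.9% ± 1.11 in cumulus-like cells. Ldhb was at 799.9 ± 225 CPM in cumulus-like cells and 216 ± 24.2 CPM in the Mvd Fdps cluster. The oocyte-like cells, 125 in all and too few in 1 library to be compared, had 2206 ± 327 CPM of Ldhb and 79.4 ± 26.2 CPM of Ldha. Hk2 made up 72.8% ± 3.29 of hexokinase UMIs (Hk1 and Hk2) in the Mvd Fdps cluster, 25.5% ± 3.14 in cumulus-like and 3.78% ± 4.21 in endothelial-like cells. Slc16a3, of Slc16a1 and Slc16a3, was 38.9% ± 10.6 in the Mvd Fdps cluster and 13.1% ± 2.55 in cumulus-like cells.

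Among complex IV subunits, Cox4i2 made up 26.3% ± 7.64 of its pair with Cox4i1 in pericyte-like cells, 14.6% ± 9.48 in the Mvd Fdps cluster and 0.44% ± 0.21 in cumulus-like cells. Ndufa4l2 made up 57.1% ± 15.9 of its pair with Ndufa4 in pericyte-like cells and 14.4% ± 18.6 in the Mvd Fdps cluster, where the 1st Fosl2F/F library again led. Other clusterings joined the Myh11 Actg2 cluster of smooth muscle genes to the pericyte-like class and lowered these pericyte shares to between 11.5% and 13.6% for Cox4i2 and between 29.8% and 34.6% for Ndufa4l2. Epas1 was 68.4% ± 3.53 of the HIF pair in endothelial-like, 59.5% ± 6.5 in pericyte-like, 41.6% ± 1.89 in cumulus-like and 8.83% ± 1.51 in macrophage-like cells. Pfkp was 82.9% ± 4.49 of the 3 phosphofructokinases in macrophage-like cells and 48.3% ± 2.45 in GC-like cells. Pfkfb4 was 57.5% ± 6.53 of its pair with Pfkfb3 in mural-like cells and 6.28% ± 2.9 in cumulus-like cells. Aldoa, Eno1 and Egln1 made up over 85% of their pairs in GC-like and endothelial-like cells, whereas Egln3 held 56.7% ± 6.98 in epithelial-like cells.

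To compare cells at equal depth, each cell was thinned to 2000 UMIs and shallower cells were left out. Ndufa4l2 was then seen in 47.2% ± 7.47 of pericyte-like cells, 11.4% ± 14.2 of the Mvd Fdps cluster, 3.32% ± 0.60 of endothelial-like and 0.44% ± 0.38 of macrophage-like cells, taken as cells that should lack it. Cox4i2 was seen in 34.9% ± 13.04, 23.8% ± 19.4, 2.96% ± 0.95 and 0.95% ± 0.62 of the same cells. Without thinning the shares of the Mvd Fdps cluster were 28.6% for Ndufa4l2 and 61.4% for Cox4i2, at median depths from 5668 to 22138 UMIs per cell in the 4 libraries, and those of macrophage-like cells were 0.83% and 2.6%, at 2362 to 8862 UMIs.

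The study set Fosl2cKO against Fosl2F/F ovaries to ask what Fosl2 does in GCs, and the members are compared here by the label of the library. UMIs were summed per class and library and compared between 2 and 2 libraries by the quasi-likelihood test of edgeR, with Benjamini-Hochberg adjustment over all genes tested, and a call needed an adjusted p under 0.1 together with a log2 change of more than 0.25 up or down. None of the 35 genes was called in GC-like cells, where 0.00579% of all 17272 genes were called. The members tended to be lower in the libraries labelled Fosl2cKO without passing the test. Of the 35, 31 had a negative log2 fold change, with a median of -0.29 against -0.02 for all genes, and 12 had both libraries labelled Fosl2cKO below both Fosl2F/F libraries, which held for 14.6% of all genes. At an unadjusted p under 0.05, 4 were lower in the libraries labelled Fosl2cKO (2.03% of all genes) and 0 higher. DESeq2 called 0 members among 174 genes in all, and edgeR without the filter on low counts 3 among 256. The make-up of the class differed between libraries. Cumulus-like cells, which had the least of the enzymes, were 402 of 4574 and 2054 of 6630 cells in the controls. Under the Fosl2cKO label they were 428 of 2202 and 347 of 2400. Mural-like cells were 995 and 452 of the same control totals and 242 and 123 of those under the Fosl2cKO label. As shares of the class, both overlapped between conditions. The part of this make-up in the differences over all GC-like cells was not tested. Median depth was 13701 and 4581 UMIs per cell in the controls and 19174.5 and 18262.5 under the Fosl2cKO label. Its part was not tested either.

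Those 4 were Cox4i2, Ndufa4l2, Egln3 and Bnip3. Cox4i2 was at 83.8 and 32.4 CPM in the controls and 11.6 and 24.6 CPM under the Fosl2cKO label, a log2 change of -1.72 (SE 0.54, adjusted p = 0.973). Ndufa4l2 was at 29.7 and 7.17 CPM in the controls and 6.54 and 2.33 CPM under the Fosl2cKO label, a log2 change of -2.12 (SE 0.75, adjusted p = 0.9998). In both genes the 1st Fosl2F/F library was more than double each of the other 3, which is the library with the high Cyp19a1. Bnip3 was at 163 and 96.7 CPM in the controls and 79.9 and 65.7 CPM under the Fosl2cKO label, a log2 change of -0.88 (SE 0.29, adjusted p = 0.992). Egln3 was at 1.73 and 1.01 CPM in the controls and 0.6205 and 0.392 CPM under the Fosl2cKO label, a log2 change of -1.49 (SE 0.47, adjusted p = 0.973). Among the enzymes, Gapdh was at 1591 and 1107 CPM in the controls and 987 and 971 CPM under the Fosl2cKO label and Ldha at 701 and 524 CPM in the controls and 467 and 444 CPM under the Fosl2cKO label, with log2 fold changes of -0.50 and -0.47. Of the factors and their hydroxylases, Hif1a (-0.18), Epas1 (0.04) and Egln1 (0.02) were close to 0 on the log2 scale with overlapping libraries, unlike Egln3 above. Without the 1st Fosl2F/F library the median of the 35 genes was -0.09, and without the 2nd it was -0.47. Without the 1st library labelled Fosl2cKO it was -0.448, and without the 2nd one -0.124.

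In the Mvd Fdps cluster 30 of the 35 genes had enough UMIs to be tested, and Slc2a3, Eno2, Egln3, Car9 and Adm did not. None of the 30 was called (0.0522% of all 11504 genes were), 29 had a negative log2 fold change, and their median was -0.59 against 0.00 for all genes. The 2 libraries labelled Fosl2cKO were both below the 2 controls for 19 of the 30 (16.6% of all genes), and 14 were lower at an unadjusted p under 0.05 (4.47% of all genes) with 0 higher. DESeq2 called 6 of them among 135 genes in all, and edgeR without the filter on low counts 14 among 625. The lowest adjusted p was 0.205, for Gapdh at 3038 and 2274 CPM in the controls and 1523 and 1645 CPM under the Fosl2cKO label, a log2 change of -0.80 (SE 0.17, adjusted p = 0.205). Aldoa was at 1296 and 967 CPM in the controls and 695 and 665 CPM under the Fosl2cKO label, Pkm at 1383 and 920.0 CPM in the controls and 729 and 687 CPM under the Fosl2cKO label, and Pgk1 at 869.6 and 633 CPM in the controls and 549 and 389.5 CPM under the Fosl2cKO label. In each of these 4 genes all 4 libraries were ordered with both Fosl2F/F values above both others, and the 1st Fosl2F/F library was the highest. Of the sterol genes among the leading genes of this cluster, Fdps was at 802 and 613 CPM in the controls and 512 and 467 CPM under the Fosl2cKO label, and Mvd at 94.1 and 71.2 CPM against 62.9 and 66.2 CPM, so both were ordered in the same way. Idi1, at 163 and 148 CPM in the controls and 168 and 105 CPM under the Fosl2cKO label, overlapped between conditions.

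Ldha in the same cluster was at 2297 and 1598 CPM in the controls and 1214 and 1171 CPM under the Fosl2cKO label, a log2 change of -0.77 (SE 0.19, adjusted p = 0.261). The carrier that exports its product, Slc16a3, was at 149 and 59.6 CPM in the controls and 35.7 and 53.2 CPM under the Fosl2cKO label, a log2 change of -1.30 (SE 0.41, adjusted p = 0.333), so its 2nd Fosl2F/F library lay close to the libraries labelled Fosl2cKO. Bnip3 was at 363 and 191 CPM in the controls and 129 and 135 CPM under the Fosl2cKO label, a log2 change of -1.13 (SE 0.28, adjusted p = 0.276). Cox4i2 was at 409 and 162 CPM in the controls and 51.4 and 108 CPM under the Fosl2cKO label, a log2 change of -1.90 (SE 0.46, adjusted p = 0.258), and Ndufa4l2 at 219.8 and 37.7 CPM in the controls and 24.2 and 16.7 CPM under the Fosl2cKO label, a log2 change of -2.74 (SE 0.69, adjusted p = 0.276). The values nearest to 0 were those of Pfkfb3 (-0.02), Epas1 (-0.11), Egln1 (-0.12), Pdk1 (-0.15) and Pfkfb4 (0.10), 5 of the 11 members whose libraries overlapped between conditions. Median depth in this cluster was 16353 and 5667.5 UMIs per cell in the controls and 22138 and 21018 under the Fosl2cKO label. The part of depth in the differences was not tested. The mitochondrial share of UMIs was between 2.58% and 2.89% in the 4 libraries of this cluster. Ribosomal protein genes took 14.0% and 14.1% in the controls and 12.8% and 12.9% under the Fosl2cKO label. Without the 1st Fosl2F/F library the median was -0.26, and without the 2nd it was -0.83. How far the difference between these 2 control libraries made up the difference between conditions was not tested.

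**Figure D3:**
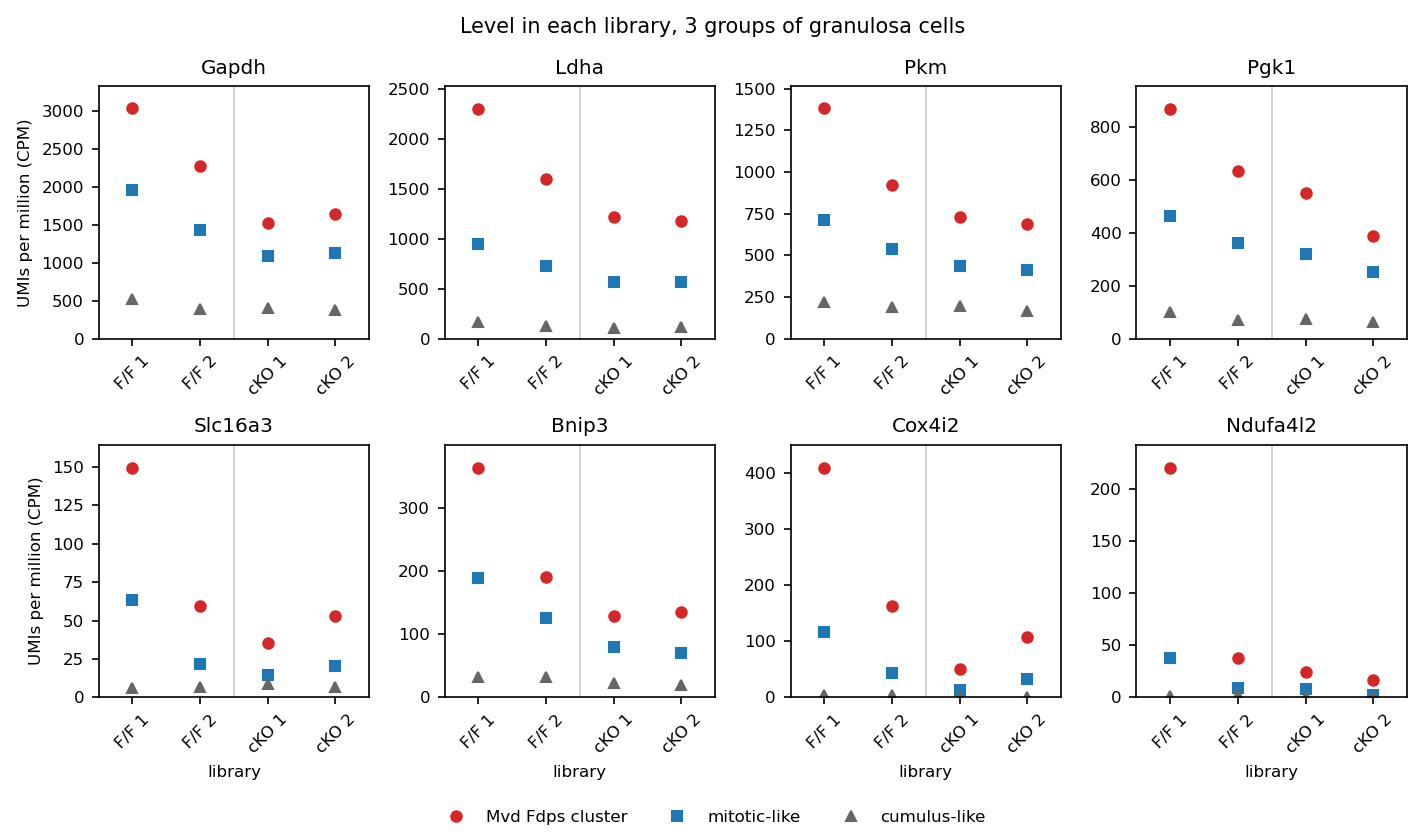
Points give CPM in each of the 4 libraries (F/F, Fosl2F/F, and cKO, labelled Fosl2cKO) for 8 genes in the Mvd Fdps cluster, mitotic-like and cumulus-like cells, on axes that start at 0. The 8 genes were picked for display. The 1st Fosl2F/F library is the highest for each gene in the first 2 cell groups, and both libraries labelled Fosl2cKO lie below both Fosl2F/F libraries in them. That order held for 19 of 30 members tested in the Mvd Fdps cluster (16.6% of all genes). In mitotic-like cells it held for 20 of 34 (17.1%).

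Mitotic-like GCs showed a like picture. None of 34 genes tested was called (0.00692% of all genes), 31 were negative with a median of -0.43, 20 had both libraries labelled Fosl2cKO below both Fosl2F/F libraries (17.1% of all genes), and 14 were lower at an unadjusted p under 0.05 (3.21% of all genes). DESeq2 called 1 member among 180 genes in all, and edgeR without the filter on low counts 10 among 589. Bnip3 was at 189 and 126 CPM in the controls and 79.4 and 70.8 CPM under the Fosl2cKO label, a log2 change of -1.10 (SE 0.22, adjusted p = 0.345). Ldha was at 951 and 728 CPM in the controls and 569 and 567 CPM under the Fosl2cKO label, a log2 change of -0.59 (SE 0.18, adjusted p = 0.562). The group joins 2 clusters, of which the larger held 589 and 804 cells in the controls and 291 and 283 under the Fosl2cKO label. The other held 172 and 421 against 189 and 215. Median depth was 22285 and 7744 UMIs per cell in the controls and 30042.5 and 28255 under the Fosl2cKO label. The part of either in the differences was not tested. Without the 1st Fosl2F/F library the median log2 fold change was -0.22, and without the 2nd it was -0.63.

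The Pecam1 Cdc20 cluster, 327 GC-like cells with 66 to 92 per library, was the one place where members were called in the edgeR fit reported here. These were Ndufa4l2, Cox4i2 and Slc16a3, 3 of 28 tested, where 0.594% of all genes were called, and DESeq2 called 2 members among 24 genes. At an unadjusted p under 0.05, 9 members were lower (2.27% of all genes) and 2 higher (4.07%), Pfkm (1.02) and Pfkfb4 (1.06). Ndufa4l2 had 44, 9, 3 and 2 UMIs in the 4 libraries, or 38.7 and 15.3 CPM in the controls and 2.17 and 1.76 CPM under the Fosl2cKO label, a log2 change of -3.83 (SE 0.63, adjusted p = 0.00437). Cox4i2 had 142, 32, 17 and 33 UMIs, or 125 and 54.5 CPM in the controls and 12.3 and 29.1 CPM under the Fosl2cKO label, a log2 change of -2.25 (SE 0.40, adjusted p = 0.00839). Slc16a3 had 65, 14, 22 and 12 UMIs, or 57.1 and 23.8 CPM in the controls and 15.9 and 10.6 CPM under the Fosl2cKO label, a log2 change of -1.71 (SE 0.43, adjusted p = 0.0966). The fold of Ndufa4l2 rests on 3 and 2 UMIs in the libraries labelled Fosl2cKO. The endothelial markers summed to 83.5 and 167 CPM in the controls and 165 and 63.4 CPM under the Fosl2cKO label for this cluster, which holds Pecam1 among its leading genes, and GC markers to between 8798 and 12287 CPM. Its other leading genes included Cdc20, Ccnb2, Cenpa and Ccnb1, and Ccnb1 was also a leading gene of the larger mitotic-like cluster. The cluster held 77 of 4574 and 92 of 6630 GC-like cells in the controls and 92 of 2202 and 66 of 2400 under the Fosl2cKO label. As shares, both libraries labelled Fosl2cKO were above both controls. Median depth was 13414 and 5675 UMIs per cell in the controls and 8270.5 and 17472 under the Fosl2cKO label. The part of any of these in the result was not tested. Without the 1st Fosl2F/F library 0 members were called (42 genes in all), without the 1st library labelled Fosl2cKO 9 were (201 genes in all), and with clusters built on features that include the members 0 were. The median log2 fold change of the members was -0.509 with all 4 libraries. It was -0.416 and -0.522 with the 1st and the 2nd control left out. With the 1st and the 2nd library labelled Fosl2cKO left out it was -0.751 and -0.252.

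In the other GC clusters 0 members were called with edgeR. All genes were called at 0.00835% in the Grem1 Nppc cluster, 0.0137% in the low-depth cluster, 0.00818% in the Cited1 Amh cluster, 0.00769% in atretic-like, 0.00764% in cumulus-like and 0.0337% in mural-like cells. At an unadjusted p under 0.05, 8 of 31 members were lower in the Grem1 Nppc cluster (2.78% of all genes) and 8 of 26 in the low-depth cluster (3.99%). The median log2 fold changes in these 2 clusters were -0.303 and -0.599. Without the 1st Fosl2F/F library they were -0.03 and -0.144, and without the 2nd -0.542 and -0.798. Without the 1st library labelled Fosl2cKO they were -0.404 and -0.774, and without the 2nd one -0.241 and -0.459. At the same limit of p the Cited1 Amh cluster had 1 of 30 lower (1.89%) and atretic-like cells 1 of 31 (1.75%). Cumulus-like cells had 2 of 31 (1.32%) and mural-like cells 0 of 31 (1.67%), and 0 members were higher in these 6. The median log2 fold change was 0.087 in the Cited1 Amh cluster, with 19 of 30 values positive and 11 negative. It was -0.027 in atretic-like, -0.174 in cumulus-like and -0.096 in mural-like cells. In this order, the medians were 0.308, -0.169, -0.096 and 0.106 without the 1st Fosl2F/F library. They were -0.079, -0.038, -0.249 and -0.293 without the 2nd. Without the 1st library labelled Fosl2cKO they were -0.142, -0.157, -0.315 and -0.398, and without the 2nd one 0.174, -0.002, -0.065 and 0.073. DESeq2 called 0 in these 6, while edgeR without the filter on low counts called 10 members among 398 genes in the Grem1 Nppc cluster, 3 among 82 in the low-depth cluster and 1 among 237 in mural-like cells. In cumulus-like cells Cox4i2 was at 3.89 and 3.88 CPM in the controls and 1.16 and 1.45 CPM under the Fosl2cKO label, a log2 change of -1.62 (SE 0.48, adjusted p = 0.639), at the low level these cells have of it.

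**Figure D4:**
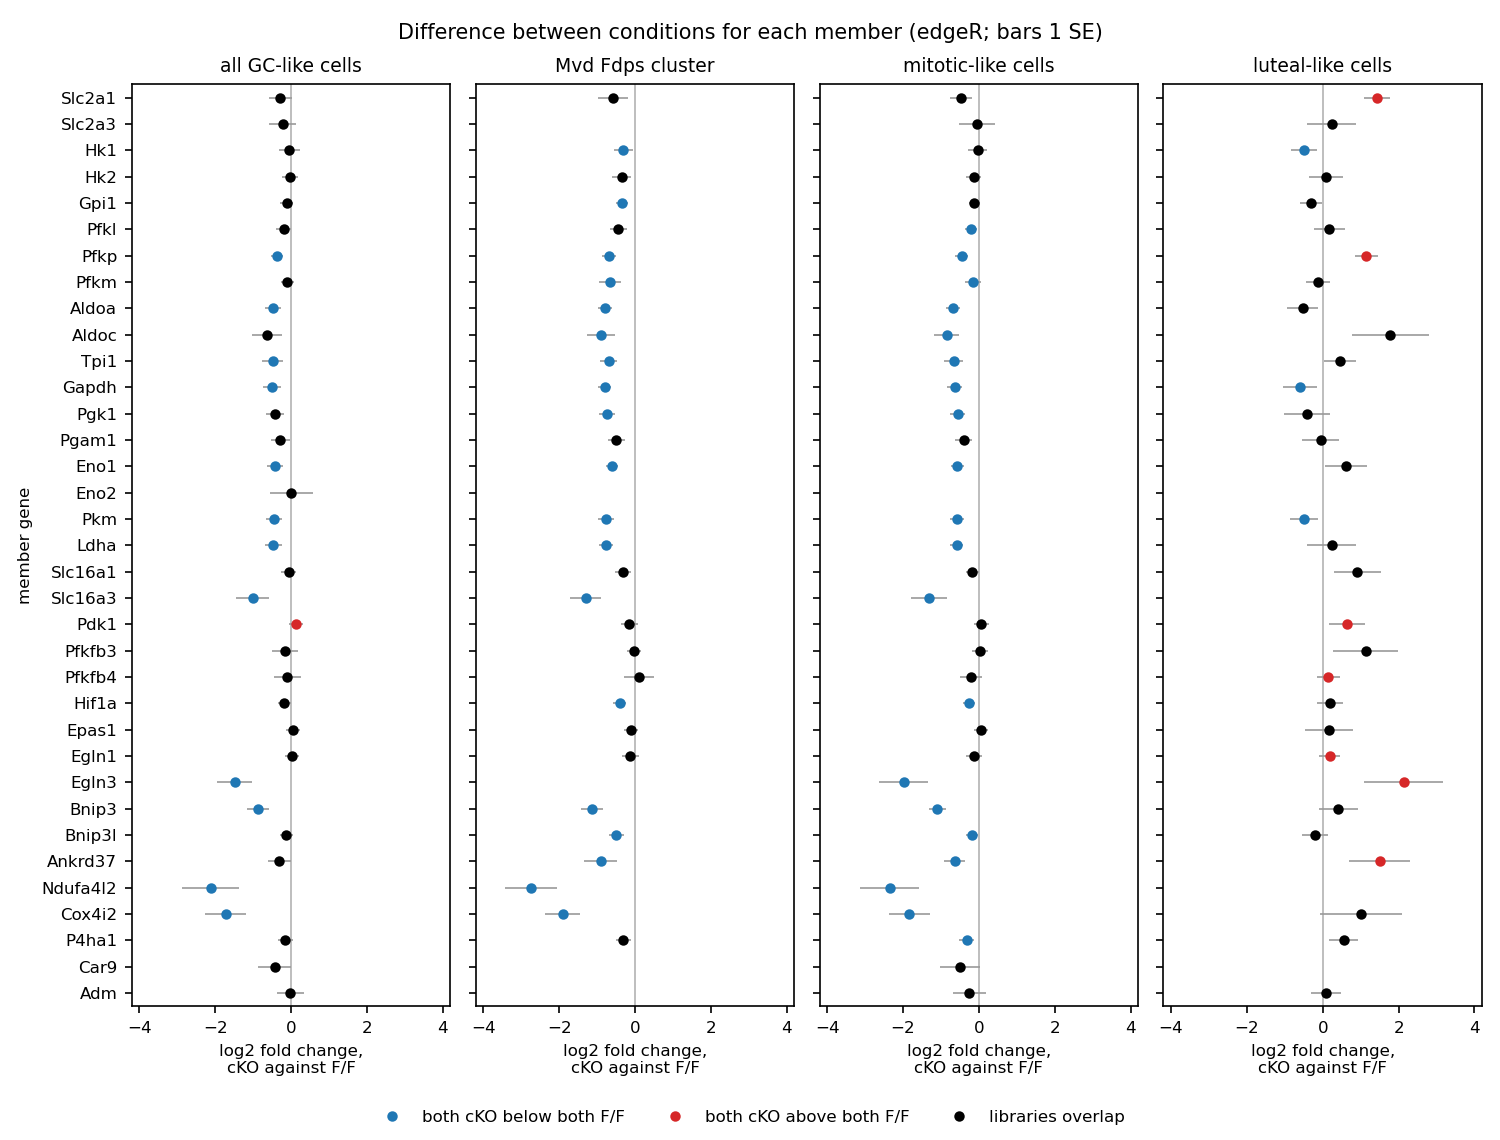
Points are log2 fold changes of Fosl2cKO against Fosl2F/F from edgeR with bars of 1 standard error for each member in all GC-like cells, the Mvd Fdps cluster, mitotic-like and luteal-like cells, coloured by whether the libraries of the conditions overlap. Most points lie left of 0 in the first 3 panels, furthest for Ndufa4l2 and Cox4i2, and 22 of 31 lie right of 0 in luteal-like cells.

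In luteal-like cells 0 members were called (0.0156% of all genes), and the shares past the other limits were close to or below those of all genes. Of 31 tested, 22 had a positive log2 fold change, the median was 0.20 against -0.02 for all genes, and 7 had both libraries labelled Fosl2cKO above both Fosl2F/F libraries, which held for 29.4% of all genes, with 2 higher (5.26% of all genes) and 0 lower (5.61%) at an unadjusted p under 0.05. The 2 were Slc2a1, at 11.4 and 14.4 CPM in the controls and 30.5 and 46.5 CPM under the Fosl2cKO label, a log2 change of 1.43 (SE 0.34, adjusted p = 0.306), and Pfkp, at 68.9 and 63.1 CPM in the controls and 180.5 and 139.8 CPM under the Fosl2cKO label, a log2 change of 1.15 (SE 0.29, adjusted p = 0.315). DESeq2 called 2 members among 436 genes in all, and edgeR without the filter on low counts 7 among 1086. The enzymes themselves varied more between the libraries labelled Fosl2cKO than between conditions, as with Ldha at 202 and 185 CPM in the controls and 398 and 95.3 CPM under the Fosl2cKO label. Without the 1st library labelled Fosl2cKO the median was -0.24, and without the 2nd one it was 0.63. Without the 1st and the 2nd Fosl2F/F library it was 0.29 and 0.49. This class joins 2 clusters, of which the one led by Akr1c18 held 111 and 342 control cells against 15 and 37 under the Fosl2cKO label.

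In pericyte-like cells the libraries of the conditions overlapped for Ndufa4l2 and Cox4i2. Ndufa4l2 gave a log2 change of -0.10 (SE 0.37, adjusted p = 0.988) and Cox4i2 a log2 change of -0.05 (SE 0.41, adjusted p = 0.992). Slc2a3 was at 41.2 and 56.6 CPM in the controls and 71.7 and 95.5 CPM under the Fosl2cKO label, a log2 change of 0.73 (SE 0.29, adjusted p = 0.964). With 0 members called (0% of all genes), 1 of 31 was higher (2.51% of all genes) and 0 lower (1.4%) at an unadjusted p under 0.05. The median log2 fold change of the 31 was -0.095 against 0.017 for all genes, with 24 values negative and 7 positive. Stromal-like (0.162% of all genes called), theca-like (0.0334%), endothelial-like (0.213%) and macrophage-like cells (0.233%) also had 0 members called with edgeR, and DESeq2 called 0 in these and in pericyte-like cells. Without the filter on low counts edgeR called 1 among 314 genes in stromal-like cells. At an unadjusted p under 0.05 in edgeR, 2 of 34 members were lower in stromal-like (2.06% of all genes), 3 of 34 in theca-like (1.02%) and 2 of 32 in endothelial-like cells (1.89%). In macrophage-like cells 1 of 28 was lower (2.48%) and 1 was higher (3.34%). DESeq2 had 0 lower in theca-like and macrophage-like cells (0.783% and 1.23% of all genes). Cox4i2 was among the lower ones in all 4 classes, at 11.7 and 9.77 CPM in the controls and 4.35 and 5.47 CPM under the Fosl2cKO label in stromal-like and 50.2 and 32.3 CPM in the controls and 15.3 and 23.6 CPM under the Fosl2cKO label in endothelial-like cells. The 10 GC markers summed to 553 and 346 CPM in the controls and 209 and 262 CPM under the Fosl2cKO label for stromal-like cells. Their part in the Cox4i2 difference was not tested. Median log2 fold changes of the members were -0.001 in stromal-like, -0.129 in theca-like, -0.084 in endothelial-like and -0.165 in macrophage-like cells. In the same order, 17 of 34, 24 of 34, 20 of 32 and 19 of 28 values were negative. Without the 1st Fosl2F/F library the medians were -0.082, 0.038, -0.109 and 0.118, and without the 2nd -0.015, -0.21, -0.044 and -0.285. Without the 1st library labelled Fosl2cKO they were -0.308, -0.284, -0.249 and -0.346, and without the 2nd one 0.096, -0.104, -0.033 and -0.023.

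The remaining classes were tested with edgeR alone and had 0 members called. All genes were called at 0.829% in NK or T-like, 0.117% in B lymphocyte-like and 0.115% in epithelial-like cells, 0.096% in the Enpep Hhip cluster, and 0% in lymphatic endothelial-like cells and the Myh11 Actg2 cluster. At an unadjusted p under 0.05, NK or T-like cells had 4 of 25 members lower (5.64% of all genes) and 1 higher (5.59%), B lymphocyte-like cells 3 of 12 lower (6.76%), the Enpep Hhip cluster 3 of 30 lower (1.19%) and lymphatic endothelial-like cells 1 of 19 lower (2.2%). Epithelial-like cells had 0 of 32 in either direction (0.985% lower and 2.5% higher among all genes), and the Myh11 Actg2 cluster 0 of 28 (1.14% and 2.3%). The median log2 fold change of the members was -0.507 in B lymphocyte-like cells, with 10 of 12 negative, against 0.003 for all genes. It was -0.175 in NK or T-like, -0.189 in lymphatic endothelial-like and -0.099 in epithelial-like cells. In the Myh11 Actg2 and Enpep Hhip clusters it was -0.071 and 0.038.

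Of the 80 other genes of the pathway, 74 were tested in GC-like cells and 0 were called, with a median log2 fold change of -0.04. In the Mvd Fdps cluster 55 were tested, 0 were called and the median was -0.18. Of these 55, 9 were lower at an unadjusted p under 0.05, against 4.47% of all genes, and 15 had both libraries labelled Fosl2cKO below both controls, against 16.6% of all genes. The partners of members named here went different ways. Ldhb was at 195 and 219 CPM in the controls and 203 and 249 CPM under the Fosl2cKO label with overlapping libraries, Vegfa, the vessel growth factor that HIF raises, at 73.5 and 77.7 CPM in the controls and 72.6 and 83.4 CPM under the Fosl2cKO label, Cox4i1 at 1049.7 and 1075 CPM in the controls and 802 and 869 CPM under the Fosl2cKO label and Ndufa4 at 302 and 422 CPM in the controls and 595 and 464 CPM under the Fosl2cKO label. Ndufa4 was thus higher in both libraries labelled Fosl2cKO, where its relative Ndufa4l2 was lower, with an unadjusted p of 0.0362 and an adjusted p of 0.452 in edgeR. The only gene of this list called in any class was Ldhb in NK or T-like cells, at 84.6 and 80.2 CPM in the controls and 40.5 and 27.6 CPM under the Fosl2cKO label, a log2 change of -1.31 (SE 0.31, adjusted p = 0.0651). Among GC clusters Pdk4, which like Pdk1 blocks pyruvate dehydrogenase, was highest in atretic-like cells (82.2 ± 11.1 CPM) and at 14.8 ± 6.67 CPM in the Mvd Fdps cluster. Slc16a7, a pyruvate carrier of high affinity, was highest in macrophage-like cells (34.9 ± 9.87 CPM) and at 2.099 ± 0.242 CPM in GC-like cells. Whether the condition acted differently on GC-like and stromal-like cells was tested as an interaction in edgeR. It was called for 0 of the 35 members (0% of 17812 genes), and 3 had an unadjusted p under 0.05 (Hif1a, Egln3 and Bnip3, against 3.81% of all genes). Limma voom called 0, with 2 members at an unadjusted p under 0.05 against 650 of all 17812 genes. Without the 2nd Fosl2F/F library only the 1st control was left, and no count is drawn from that fit.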

How the data were processed

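The authors sequenced dissociated ovaries on the 10x Genomics platform and deposited, for each of the 4 libraries, whole-number UMI counts per gene and barcode, without normalization. Per the labels and methods, reads were aligned to GRCm38 with Cell Ranger. The matrix header names version 7.1.0, another one than the methods, and whether a described correction for background RNA is in the counts is not given in the sources used here. Per library, barcodes held 120327227 to 148836173 UMIs.

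A cell had to show 500 or more genes and more than 1000 UMIs, with less than 10% of them mitochondrial and less than 0.1% from hemoglobin genes, and the cells with the highest Scrublet scores (scanpy 1.11.5) were removed at 0.8% per 1000 cells of a library. Libraries were normalized with SCTransform, integrated by reciprocal PCA in Seurat 5.3.0 (3000 features without the 35 members and 80 pathway genes, 30 components) and grouped with Louvain clustering (resolution 0.8, or 0.5 within GC-like cells). Marker lists gave the names, by limits set after the data had been seen. The members, gene lists and tests were chosen with earlier results of these data known.

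UMIs were summed per class and library where each library had at least 20 cells. Genes were kept by filterByExpr and libraries scaled by TMM, and edgeR 4.0.16 (quasi-likelihood) compared the conditions over all genes. Folds come from this fit and levels are plain CPM. The test was tried on simulated counts with known changes first. Of 100 genes changed 2-fold it recovered 35 in GC-like, 15 in mural-like, 18 in stromal-like and 26 in pericyte-like cells, and 46 in the Mvd Fdps cluster. Of 100 changed 4-fold it recovered 80 to 89, with 6 to 13 false calls per cell group. A result of 0 calls therefore does not show that 2-fold changes were absent. Alternatives were DESeq2 1.42.0, limma 3.58.1 (voom), RLE scaling, no gene filter, a call at adjusted p under 0.05 whatever the fold, the replicate number as a block, each library left out, cells over 2000 UMIs or under 5% mitochondrial UMIs, 2 times the doublets removed, other clusterings, and other thinning.

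The genes named are the 35 members, 6 fixed genes of the pathway list and any of that list called between conditions, the 10 genes most like the enzymes over GC clusters, and leading genes of clusters. Marker genes, Cyp19a1 and Fosl2 served as checks. Of 2 features named Aldoa the one with 155540 UMIs was used, the other having 95. Gapdh, Aldoa, Pgk1, Pgam1, Ldha and Bnip3l have named processed pseudogenes in the annotation (11 in all), with which reads could be shared.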

Additional observations from a re-analysis of the deposited data

Results flagged for a closer look

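For 3 genes, the 2 libraries labelled Fosl2cKO were both below the controls in GC-like cells and both above them in another class, among 12 classes set against GC-like cells. The same held for 4.53% of the 17272 genes tested in GC-like cells. Except for Egln3 in stromal-like cells, the difference was not tested. For Egln3, with a log2 fold change of -1.49 in GC-like cells, the opposite side was found in NK or T-like cells (1.46, a difference of 2.95), in luteal-like cells (2.13, a difference of 3.62) and in stromal-like cells (0.47, a difference of 1.96, for which the interaction gave an unadjusted p of 0.00304 and an adjusted p of 1 in edgeR). Egln3 rested on 4, 3, 21 and 14 UMIs in NK or T-like cells. For Pfkp, at -0.38 in GC-like cells, it was found in NK or T-like cells (0.35, a difference of 0.73) and in luteal-like cells (1.15, a difference of 1.54). For Cox4i2, at -1.72 in GC-like cells, it was found in the Enpep Hhip cluster (0.42, a difference of 2.14).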

How the results depend on the processing

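Of 1166 values recomputed with all 4 libraries in use, 1084 kept their direction and their side of the threshold or stayed within the limits set for them. Members called at 0 in the reported comparison were called more often in edgeR without the gene filter, with 3 in GC-like cells (256 genes called in all, against 1 with the filter), 10 in the Grem1 Nppc cluster (398 against 1), 14 in the Mvd Fdps cluster (625 against 6), 3 in the low-depth cluster (82 against 1), 7 in luteal-like (1086 against 2), 10 in mitotic-like (589 against 1), 1 in mural-like (237 against 4) and 1 in stromal-like cells (314 against 25). The 3 in GC-like cells were Bnip3 (-0.89), Cox4i2 (-1.74) and Ndufa4l2 (-2.14), values being log2 fold changes here and below. DESeq2 called 6 in the Mvd Fdps cluster (135 genes in all), 2 in luteal-like (436) and 1 in mitotic-like cells (180). In the Pecam1 Cdc20 cluster 3 members were called, and 0 when the members were among the clustering features. Members lower at an unadjusted p under 0.05 in GC-like cells numbered 4 (2.03% of all genes), and 10 without the gene filter (3.07%). They numbered 7 with cells under 5% mitochondrial UMIs and 8 with 2 times the doublets removed. No share of all genes is given here for these last 2 settings. The cause of these changes was not tested.

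The labels give both conditions replicates 1 and 2 but do not say that a number marks a shared litter or day. Deviations of same-numbered libraries correlated at -0.27 in GC-like and -0.14 in stromal-like cells. With 2 libraries per condition, crossed numbers must give the same size with the other sign, so these values cannot decide on a pairing. As the labels state no pairing, the numbers were not taken to pair the libraries. With the replicate number as a block, 1 member was called in GC-like cells (Ndufa4l2, -1.94, among 31 genes), 1 in mitotic-like cells (11 genes) and 2 in the Pecam1 Cdc20 cluster (33 genes), Pfkfb4 in GC-like cells went from -0.10 to 0.0019, and the block gave 0 calls in the 13 other classes tested so. With the numbers crossed, a pairing chosen after seeing the data, 1 member was called in the Grem1 Nppc cluster (129 genes in all), 7 in the Mvd Fdps cluster (194), 2 in the low-depth cluster (80 genes), 4 in the Pecam1 Cdc20 cluster (94), 10 in mitotic-like (548), 1 in endothelial-like (179) and 1 in stromal-like cells (276). In GC-like cells 7 members were then lower at an unadjusted p under 0.05 in edgeR (2.78% of all genes).

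Other directions that turned with all 4 libraries belonged to genes between -0.15 and 0.10. In GC-like cells Eno2 (0.01) was at -0.0003 without the gene filter, -0.0072 with cells over 2000 UMIs and -0.048 without integration, and Egln1 (0.02) was at -0.015 with cells under 5% mitochondrial UMIs. In the Mvd Fdps cluster, clusters built with the members as features gave Egln1 0.0094, Epas1 0.11, Pdk1 0.032, Pfkfb3 0.061 and Pfkfb4 -0.13, and 2 times the doublets removed gave Pfkfb4 -0.029.

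Leaving out each library in turn, the calls ranged from 0 to 1 in GC-like, stromal-like, endothelial-like, pericyte-like, macrophage-like and mural-like cells and in the Grem1 Nppc and Cited1 Amh clusters, from 0 to 11 in the Mvd Fdps cluster (168 genes called in all where 11 members were), 0 to 6 in the low-depth cluster (114 where 6 were), 0 to 9 in the Pecam1 Cdc20 cluster (201 where 9 were) and 0 to 5 in mitotic-like cells (383 where 5 were). Members lower at an unadjusted p under 0.05 ranged from 1 to 17 in GC-like cells, 9 to 23 in the Mvd Fdps cluster and 2 to 16 in mitotic-like cells, and the medians from -0.47 to -0.093, -0.83 to -0.26 and -0.63 to -0.22. For these 3 cell groups the fewest lower members and the medians nearest 0 came without the 1st Fosl2F/F library, and the most lower members and the lowest medians without the 2nd. Where 1 member was called, the number of all genes called differed widely between cell groups and fits. Each of these fits leaves 1 library in a condition, so no conclusion is drawn from the counts of calls. In GC-like cells 14 of the 35 genes changed direction without 1 library. Values ranged from -0.66 to 0.25 for Slc2a1, -0.40 to 0.24 for Hk1, -0.23 to 0.25 for Hk2, -0.39 to 0.044 for Pfkl, -0.84 to 0.014 for Tpi1, -0.57 to 0.091 for Pgam1, -0.37 to 0.66 for Eno2, -0.29 to 0.21 for Slc16a1, -0.59 to 0.47 for Pfkfb3, -0.55 to 0.58 for Pfkfb4, -0.087 to 0.21 for Epas1, -0.14 to 0.17 for Egln1, -0.37 to 0.11 for P4ha1 and -0.48 to 0.33 for Adm. Ndufa4l2 (-3.02 to -0.67) and Cox4i2 (-2.40 to -0.81) stayed below 0. In the Mvd Fdps cluster 6 of 30 turned, with -1.12 to 0.33 for Slc2a1, -0.64 to 0.011 for Hk2, -0.34 to 0.017 for Pdk1, -0.066 to 0.010 for Pfkfb3, -0.43 to 0.48 for Pfkfb4 and -0.30 to 0.054 for Epas1.

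The class with the highest level was the same for at least 28 of the genes that could be compared under each alternative. Without integration the GC cluster with the highest level was the same for 8 of the 11 genes that could be compared. The Mvd Fdps cluster had no match there at a Jaccard index of at least 0.5, since 930 of its 1123 cells lay in a cluster of 2846 (0.306), so its comparison between conditions has no value without integration. The pericyte share of Cox4i2 in the UMIs of its family (26.3%) was 13.6% with coarser clusters, 12.4% with finer ones, 11.5% with the members as features and 13.4% without integration, and that of Ndufa4l2 (57.1%) was 34.6%, 31.8%, 29.8% and 34.1%. Shares of cells with a UMI moved with depth. In the Mvd Fdps cluster Ldha (87.6%) was at 72.2% with cells thinned to 1000 UMIs and 99.4% without thinning, and Cox4i2, Ndufa4l2 and Slc16a3 without thinning were at 61.4%, 28.6% and 49.97%. In pericyte-like cells Cox4i2 (34.9%) was at 18.8% and 48.4%, and Ndufa4l2 (47.2%) at 31.8% and 59.2%.

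Each condition has 2 libraries, and in the Pecam1 Cdc20 cluster the value of Ndufa4l2 rests on 3 and 2 UMIs under the Fosl2cKO label.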
